A study of Mus musculus with 8 samples.

Results

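The genes described here are 47 members of the DNA replication machinery: the proteins that mark and license origins, the replicative helicase, the clamp, polymerases and primase of the fork, the enzymes that join lagging-strand fragments or supply nucleotides, and the factor that packs new DNA into chromatin. They were chosen by name, as rows of the deposited array table whose platform annotation gives 1 of the 47 symbols, and a gene with more than 1 row is represented by its brightest, by the mean over the 8 arrays. Of the 47, 46 had a row of their own among 22180 genes tested, and Rfc4 was represented only by a row shared with Eif4a2. Total RNA came from the pancreas of C57 BL6 mice 6 days after tamoxifen, injected intraperitoneally at 3 mg per 40 g of body weight. The Lmna knockout group (KO, labelled LmnaKO) and the control group (WT, labelled LmnaWT) each held 4 arrays, KO 1 to KO 4 and WT 1 to WT 4, from 3 males and 1 female, the female being replicate 4. Lmna encodes lamins A and C, filament proteins of the nuclear lamina, and the series title places their loss in acinar cells, which make digestive enzymes. Neither the promoter that drives the recombinase, nor the ages of the mice, nor whether controls carried a recombinase is given in the sources used here. The labels do not say whether each array is a separate animal, so a p-value covers only the spread between arrays, which may be technical.

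DNA replication starts when the origin recognition complex (ORC), with Cdc6 and Cdt1, loads the Mcm2 to Mcm7 helicase onto origins before S phase, a step called licensing. Cdc45 and the GINS complex then join the helicase, and polymerases copy DNA behind it, held by the clamp Pcna, while RPA covers the exposed strand. Most of these genes are known targets of the E2F transcription factors and are transcribed at low levels in resting tissue, and acinar cells of the adult pancreas divide rarely.

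Promoters are shown because the E2F factors are known regulators of this gene class, for the 6 members of smallest p that hold an E2F motif. Promoter windows from 250 bases before to 50 after the annotated start were taken from RefSeq (build GRCm38.p6), and 39 of the 47 members had at least 1 window, 47 windows in all. The E2F motif was searched as TTTCCCGC, TTTGGCGC, TTTGCCGC or TTTCGCGC on both strands. It was present in 15 of the 39 members (38.5%), compared with 704 of all 27025 genes that have a window (2.6%). Members that rose and members that did not pass the test held it in like numbers, 7 of 19 (36.8%) and 8 of 19 (42.1%). The CCAAT box, searched as CCAAT on both strands, was in 24 of the 39 members (61.5%) and in 41.1% of all genes with a window, and the cell cycle element TTTGAA, also searched on both strands, was in 5 members (12.8%) and 20.2% of all. An E2F match overlapped a CCAAT box in 1 member, Mcm7. The windows lie on GRCm38.p6 for Mcm3 at chr1:20820263-20820562 (minus strand), Mcm5 at chr8:75109259-75109558 (plus strand), Mcm6 at chr1:128359656-128359955 (minus strand), Mcm7 at chr5:138171834-138172133 (minus strand), Orc3 at chr4:34614893-34615192 (minus strand) and Pold3 at chr7:100121453-100121752 (minus strand). They are written along the gene's own strand with the E2F matches in capitals, and the capitals of Mcm5 and the first ones of Mcm6 are 2 overlapping matches on opposite strands.
Mcm3: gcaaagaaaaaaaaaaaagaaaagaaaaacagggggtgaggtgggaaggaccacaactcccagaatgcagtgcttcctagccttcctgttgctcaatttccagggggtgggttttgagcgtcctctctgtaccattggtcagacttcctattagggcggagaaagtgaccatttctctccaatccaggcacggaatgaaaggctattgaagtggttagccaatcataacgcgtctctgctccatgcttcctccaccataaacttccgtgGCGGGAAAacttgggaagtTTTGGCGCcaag
Mcm5: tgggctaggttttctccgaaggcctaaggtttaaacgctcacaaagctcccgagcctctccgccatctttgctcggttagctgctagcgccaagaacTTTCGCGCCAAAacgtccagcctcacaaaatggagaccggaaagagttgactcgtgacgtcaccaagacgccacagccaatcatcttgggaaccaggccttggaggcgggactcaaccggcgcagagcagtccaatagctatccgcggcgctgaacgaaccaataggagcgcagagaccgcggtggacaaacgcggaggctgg
Mcm6: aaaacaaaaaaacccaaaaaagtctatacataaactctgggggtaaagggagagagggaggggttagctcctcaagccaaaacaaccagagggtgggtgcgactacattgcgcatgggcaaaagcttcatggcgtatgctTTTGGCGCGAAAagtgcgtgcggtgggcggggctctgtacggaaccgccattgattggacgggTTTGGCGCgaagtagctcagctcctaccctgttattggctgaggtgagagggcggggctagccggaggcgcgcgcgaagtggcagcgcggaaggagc
Mcm7: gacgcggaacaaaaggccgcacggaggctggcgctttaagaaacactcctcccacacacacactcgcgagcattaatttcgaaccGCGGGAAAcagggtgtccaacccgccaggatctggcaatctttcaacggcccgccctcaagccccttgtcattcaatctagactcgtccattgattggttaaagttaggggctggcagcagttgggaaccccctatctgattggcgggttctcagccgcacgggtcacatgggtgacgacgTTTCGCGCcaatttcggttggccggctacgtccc
Orc3: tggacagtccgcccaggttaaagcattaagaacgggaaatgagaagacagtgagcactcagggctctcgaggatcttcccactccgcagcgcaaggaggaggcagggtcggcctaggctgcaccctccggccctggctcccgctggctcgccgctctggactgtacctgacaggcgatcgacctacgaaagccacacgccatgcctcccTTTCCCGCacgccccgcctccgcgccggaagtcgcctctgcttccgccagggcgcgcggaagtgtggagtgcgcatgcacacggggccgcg
Pold3: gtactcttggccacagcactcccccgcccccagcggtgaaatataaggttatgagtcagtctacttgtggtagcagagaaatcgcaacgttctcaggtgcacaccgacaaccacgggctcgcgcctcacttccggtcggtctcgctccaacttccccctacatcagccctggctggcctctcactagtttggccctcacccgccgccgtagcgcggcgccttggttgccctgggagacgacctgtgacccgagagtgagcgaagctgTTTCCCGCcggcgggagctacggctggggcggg
All 6 of these genes were higher in KO pancreas, with values given below. This follows from their choice by smallest p, since every member that passed the test was higher, and is not a result about the motif. A match describes the letters of the window and not a binding site, and the absence of one in Pcna or Prim1 says only that these letters are not in their windows.

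Of the 46 measured members, 23 (50%) rose at a limma adjusted p under 0.05, where 14.6% of all genes did. None fell (0 of 46), where 6.99% of all genes did, and 21.6% of all genes changed in either direction. At an unadjusted p under 0.05, 34 members were higher and 0 lower. The median log2 difference of the members, KO minus WT, was 0.58, against -0.06 over all genes, a value that depended on level (below). In 43 of 46 members the difference was positive, as in 44.8% of all genes. In 27 members (58.7%) all 4 KO arrays lay above all 4 WT arrays, where 15.3% of all genes did, and in 0 members all KO arrays lay below, where 12.1% of all genes did. These shares of all genes were not matched for level. The median difference of all genes was -0.19 under a level of 2, which held 8235 genes, and positive at 3 to 4 and above. The count of 23 was 15 without KO 2 (11.1% of all genes), 14 without KO 3 (9.75%) and 13 without KO 4 (8.03%). It was 10 when the arrays were quantile normalized again (5.54% of all genes), 14 with cyclic loess (6.86%) and 32 with median centring (19.8%). The interquartile range of the values was wider in KO arrays (2.88 to 3.03) than in WT arrays (2.11 to 2.48), and renewed quantile normalization gives all arrays the same distribution. Among males only, with 3 arrays per genotype, it was 5 (3.47% of all genes). By step, calls were most frequent in the helicase (5 of 6) and in the clamp, loader and RPA group (6 of 8), and least in Okazaki fragment maturation (0 of 2) and helicase activation (1 of 6, 16.7%). The steps also differed in level, on which calls depended (below). Their median log2 levels were 3.85 in the helicase, 3.59 in the clamp, loader and RPA group, 2.94 in Okazaki maturation and 2.84 in helicase activation. Differences between steps were not tested, and no level-matched share was computed per step.

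**Figure D1:**
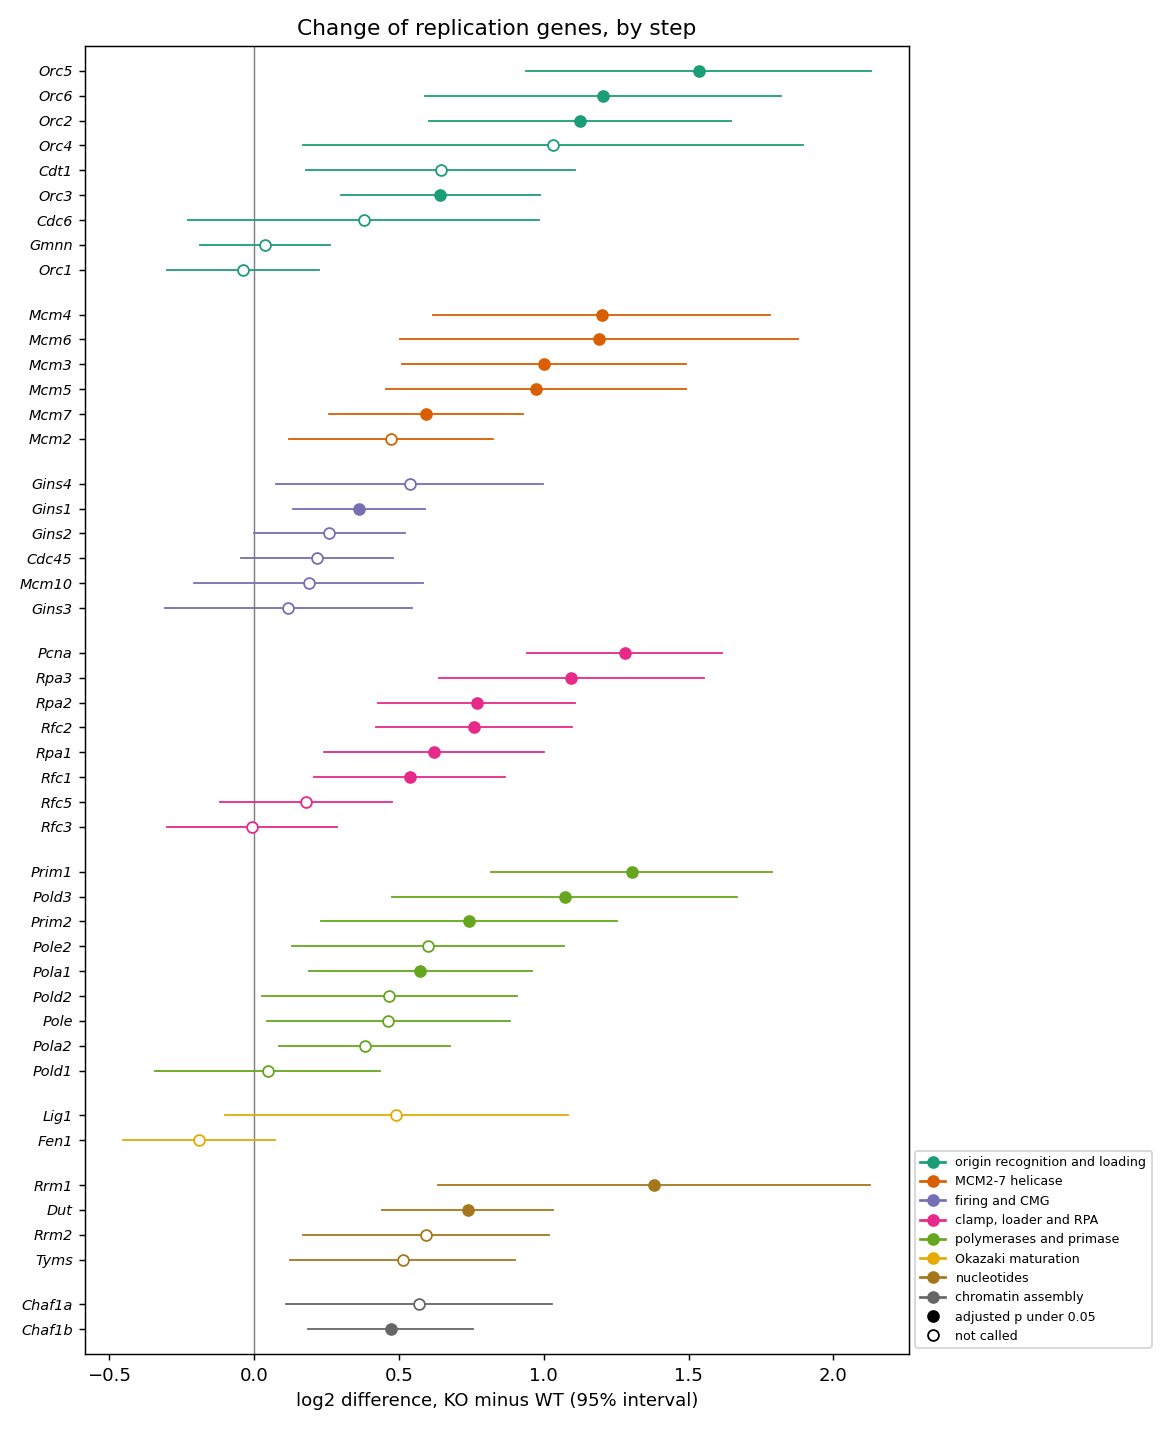
Log2 difference, KO minus WT, of each of the 46 measured members (x axis, with 95% intervals from limma), grouped by step and sorted by size within a step. Filled points passed an adjusted p of 0.05. The 23 filled points all lie right of 0, and Orc5, Rrm1, Prim1 and Pcna have the largest values.

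Calls depended on the level of a gene, so the members were also set beside all genes of like mean log2 level. At a level of 3 to 4, 9 of 15 members (60%) were called higher, against 22.9% of all genes. At 4 to 5 the count was 9 of 12 (75%), against 36.6% of all genes. Between 2 and 3 it was 2 of 14 (14.3%), against 5.07%. The ends of the range held few members, with 2 of 3 called at a level of 5 or more (35.9% of all genes) and 1 of 2 under a level of 2 (0.486%). Weighting the shares of all genes by the levels of the members gives 20.9%, below the 50% seen in the members. The median difference of all genes also depended on level. At 3 to 4 it was 0.26, against 0.64 in the members, and at 4 to 5 it was 0.45, against 0.68. Between 2 and 3 it was -0.17, against 0.24, and at 5 or more 0.44, against 1.03 in the 3 members there. After renewed quantile normalization, 21.7% of members were called and the weighted share was 7.81%. Signal over background is unknown on these arrays.

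**Figure D2:**
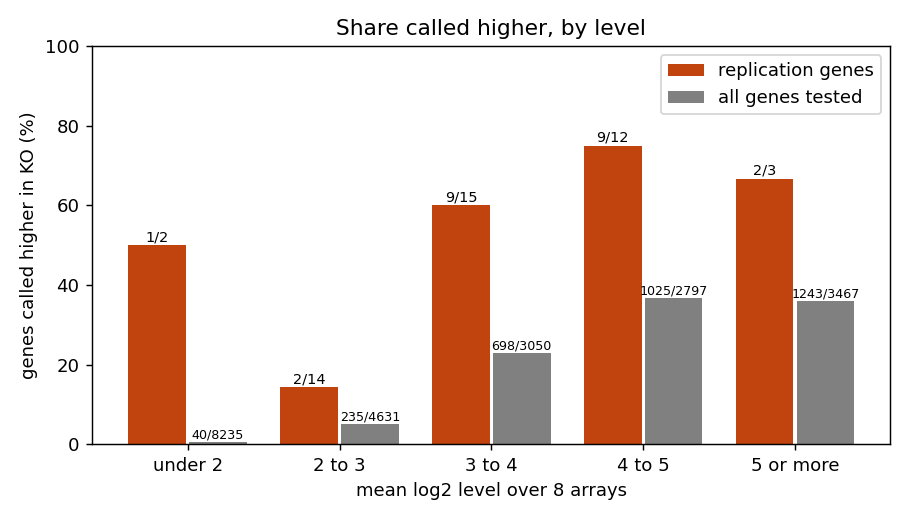
Percentage of genes called higher in KO (y axis) among the replication genes (left bars) and all genes tested (right bars) in bins of mean log2 level over the 8 arrays (x axis), with counts above the bars. The share of replication genes is above that of all genes in each bin, with 2 members under a level of 2 and 3 at 5 or more.

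The pancreas holds other cells besides acinar cells, and in such RNA more cells of a type and more RNA per cell cannot be told apart. Of all genes, 14.6% rose and 6.99% fell, the shares to set beside the marker counts. Acinar markers were among the brightest genes (median level 11.9 over 7 measured of 9), and 0 of them rose while 2 fell. The 2 that fell were the transcription factors Bhlha15 (-1.42 ± 0.12) and Rbpjl (-1.60 ± 0.17). The other 5 were not called, with differences from -0.20 for Cela1 to 0.03 for Ptf1a, and the median of the list was -0.13. Of these, Cpa1, Cel, Cela1 and Ctrb1 had levels of 11.90 to 12.34, near the largest value on the arrays (12.47). Whether rows so near the top can show a fall is unknown. The mean level of the acinar list, which includes the 2 that fell, was 9.42 to 9.62 in KO and 9.90 to 10.1 in WT. Macrophage markers rose in 4 of 10 genes (40%), with a mean level of 5.27 to 6.91 in KO and 3.86 to 5.65 in WT. Single macrophage markers had levels of 4.07 to 8.29, and that share is near those of all genes at 4 to 5 (36.6%) and at 5 or more (35.9%). Their median difference was 1.42, against 0.45 and 0.44 for all genes at these levels. Among stellate markers 1 of 8 rose (4.65 to 6.49 in KO, 4.18 to 5.45 in WT). Their differences were positive in 6 of 8, with a median of 1.11. They had levels of 3.62 to 6.91, and the median of all genes was 0.26 at 3 to 4, 0.45 at 4 to 5 and 0.44 at 5 or more. Among ductal markers 1 of 7 rose and 1 fell, and among beta cell markers 0 of 5 rose and 2 fell. Neutrophil (0 of 6), T cell (0 of 5), B cell (0 of 3) and endothelial (0 of 5) markers did not pass. Lmna itself read 2.33, 2.58, 2.73 and 2.61 in KO 1 to KO 4, against 2.54, 3.13, 2.67 and 2.88 in WT 1 to WT 4, a difference of -0.24 ± 0.15 (adjusted p = 0.264). The position of its probes relative to the deletion is not given, so this row does not check the labels.

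Origin recognition and loading came first in order of action, and 4 of 9 measured members rose (44.4%, beside 14.6% of all genes). The ORC subunits bind origins, and Orc5 had the largest difference of all members. Orc5 read 5.45, 5.09, 4.84 and 5.41 in KO 1 to KO 4, against 4.49, 3.37, 3.56 and 3.23 in WT 1 to WT 4, a log2 difference of 1.54 ± 0.27 (± SE, n = 4 per group, 2.9-fold, limma adjusted p = 0.00576). The groups did not overlap, and WT 1 stood closest to the KO arrays. Orc6 read 4.10, 4.13, 3.73 and 4.19 in KO 1 to KO 4, against 3.64, 2.13, 2.87 and 2.67 in WT 1 to WT 4. Orc2 read 4.62, 4.52, 4.52 and 4.82 in KO 1 to KO 4, against 4.08, 2.84, 3.70 and 3.36 in WT 1 to WT 4. Their differences were 1.20 ± 0.27 (adjusted p = 0.0158) and 1.13 ± 0.23 (adjusted p = 0.0113), and in both genes WT 1 was the highest and WT 2 the lowest control. Orc3 read 5.45, 5.85, 5.70 and 5.56 in KO 1 to KO 4, against 5.36, 4.78, 4.99 and 4.86 in WT 1 to WT 4, a difference of 0.64 ± 0.15 (adjusted p = 0.0187), with KO 1 only slightly above WT 1. Its call was lost without KO 3, in males only, with renewed quantile normalization and with cyclic loess.

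The other members of the licensing step did not pass. Orc4 read 6.69, 6.23, 6.36 and 6.55 in KO 1 to KO 4, against 6.43, 4.18, 5.43 and 5.67 in WT 1 to WT 4, so that WT 1 lay among the KO arrays and WT 2 far below all others, and its difference was 1.03 ± 0.39 (adjusted p = 0.0812). Orc1, the subunit whose level is known to follow the cell cycle, was at percentile 21.4 of all gene levels and differed by -0.04 ± 0.12 (95% interval -0.30 to 0.22). Cdt1, which delivers the helicase to ORC, read 3.72, 4.10, 3.28 and 3.44 in KO 1 to KO 4, against 3.02, 3.41, 2.73 and 2.80 in WT 1 to WT 4, a difference of 0.64 ± 0.21 (adjusted p = 0.0519), with only WT 2 inside the range of KO. Cdc6, the other loading factor, overlapped between groups (2.27 to 3.25 in KO and 1.90 to 2.98 in WT) and differed by 0.38 ± 0.27 (adjusted p = 0.315). Geminin (Gmnn), the inhibitor that binds Cdt1, read 2.58, 2.60, 2.69 and 2.67 in KO 1 to KO 4, against 2.61, 2.65, 2.54 and 2.58 in WT 1 to WT 4, and its difference of 0.04 ± 0.10 had an interval of -0.19 to 0.26. The change of Cdt1 exceeded that of Gmnn by 0.61 ± 0.24 (± SE), which an exact two-sided permutation test over the arrays did not separate from 0 (p = 0.0571, adjusted p = 0.114 over 4 pairs of members, smallest p possible 0.0286). With the replicate number as a block, Orc4 (adjusted p = 0.0273) and Cdt1 (adjusted p = 0.0108) passed.

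The helicase subunits Mcm2 to Mcm7 form the ring that unwinds DNA, and 5 of 6 rose (83.3%, beside 14.6% of all genes). Of all genes at a level of 3 to 4, 22.9% rose, and at 4 to 5, 36.6% did, and the 6 subunits lay within these levels. Mcm4 read 3.66, 4.89, 4.16 and 4.37 in KO 1 to KO 4, against 3.18, 3.34, 3.22 and 2.55 in WT 1 to WT 4, a log2 difference of 1.20 ± 0.26 (2.3-fold, adjusted p = 0.0133). Mcm3 read 3.23, 4.24, 3.55 and 3.89 in KO 1 to KO 4, against 2.67, 3.06, 2.72 and 2.44 in WT 1 to WT 4, a difference of 1.002 ± 0.22 (2-fold, adjusted p = 0.0138). In both genes the order of the KO arrays was KO 2, KO 4, KO 3 and KO 1, and WT 4 was the lowest control. Mcm6 read 4.26, 5.04, 4.59 and 4.60 in KO 1 to KO 4, against 3.61, 3.86, 3.82 and 2.43 in WT 1 to WT 4. Mcm5 read 3.41, 4.42, 3.92 and 3.95 in KO 1 to KO 4, against 2.71, 3.19, 3.29 and 2.61 in WT 1 to WT 4. Mcm6 differed by 1.19 ± 0.31 (adjusted p = 0.0246), and its control mean rested in part on the low WT 4. The difference of Mcm5 was 0.97 ± 0.23 (adjusted p = 0.0183), and here KO 1 stood only slightly above WT 3. Mcm7 read 4.33, 4.71, 4.58 and 4.46 in KO 1 to KO 4, against 3.69, 3.74, 4.16 and 4.11 in WT 1 to WT 4, a smaller difference of 0.59 ± 0.15 (adjusted p = 0.0225). Mcm2 read 4.36, 4.77, 4.29 and 4.65 in KO 1 to KO 4, against 4.21, 4.25, 3.83 and 3.89 in WT 1 to WT 4. All 4 KO arrays lay above the controls, with a difference of 0.47 ± 0.16 that narrowly missed the threshold (adjusted p = 0.057). Of the 6 subunits, 3 were called without KO 2, 3 without KO 3 and 2 without KO 4. Mcm3 and Mcm4 were called each time, and Mcm5 without KO 2 or KO 3. Mcm6 and Mcm7 lost their calls without each of KO 2, KO 3 and KO 4. Rows that the annotation shares between Mcm7 and a microRNA were left out.

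**Figure D3:**
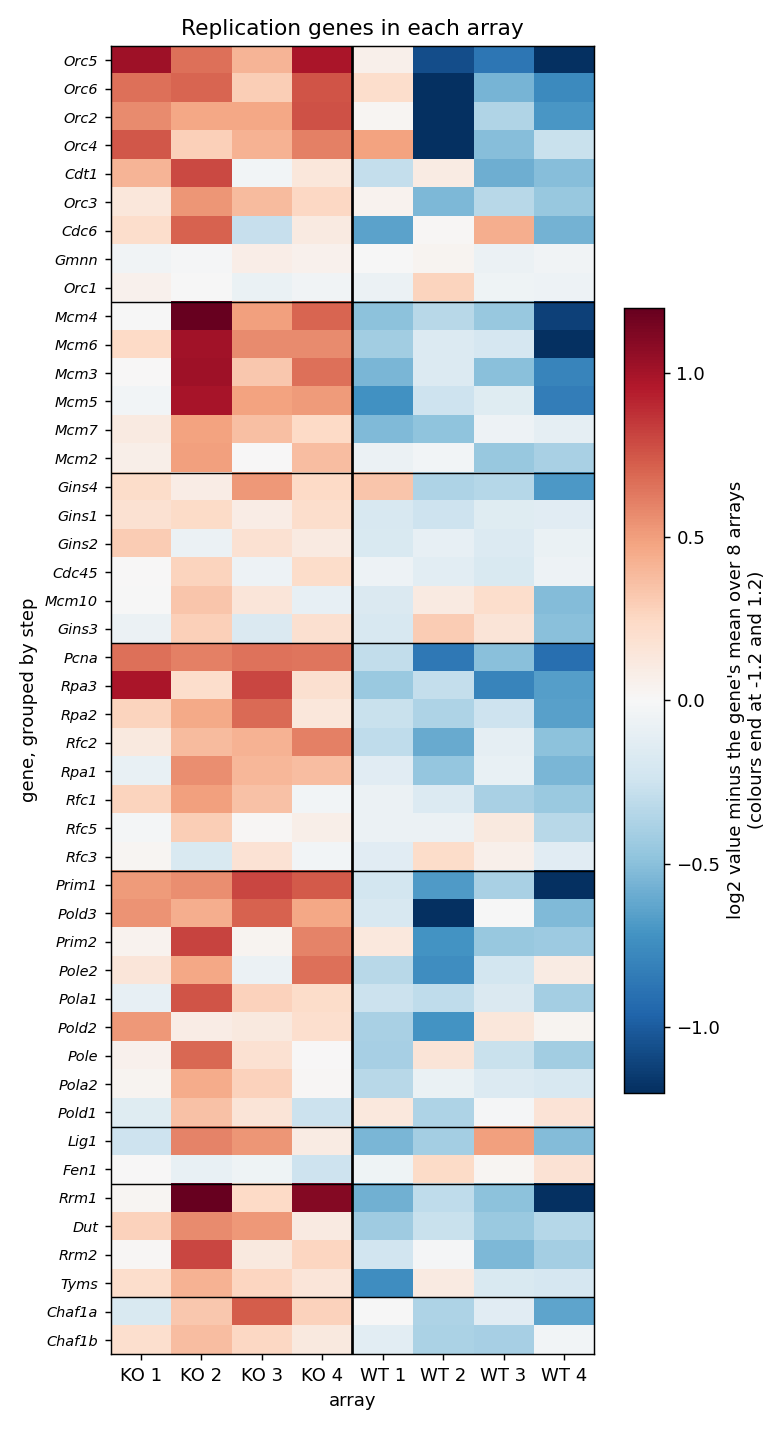
Log2 value minus the gene's mean over the 8 arrays (colour scale) for the 46 measured members (rows, grouped by step in the order of action) in the 4 KO arrays (left) and the 4 WT arrays (right). KO arrays are mostly above the mean and WT arrays mostly below it, with KO 2 the highest KO array in 27 members.

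The proteins that turn the loaded helicase into the active Cdc45, Mcm2 to Mcm7 and GINS complex were measured for 6 genes, of which 1 rose (16.7%, beside 14.6% of all genes). Their levels ran from 1.99 to 4.78 with a median of 2.84, and of all genes at a level of 2 to 3, 5.07% rose. Gins1, a GINS subunit, read 2.17, 2.22, 2.08 and 2.20 in KO 1 to KO 4, against 1.80, 1.74, 1.84 and 1.86 in WT 1 to WT 4. Its difference was 0.36 ± 0.10 (adjusted p = 0.0332) at percentile 36.8 of all gene levels. The call was lost without each of the KO arrays and without WT 2, WT 3 or WT 4, and with the replicate number as a block (adjusted p = 0.0731), and was kept in 9 of 18 alternatives. The values of the others were 0.54 ± 0.21 for Gins4, 0.26 ± 0.12 for Gins2 and 0.12 ± 0.19 for Gins3, the remaining GINS subunits, 0.22 ± 0.12 for Cdc45 and 0.19 ± 0.18 for Mcm10, which helps to start unwinding. Their adjusted p ran from 0.0875 for Gins4 to 0.66 for Gins3. For Gins4, WT 1 (5.11) lay inside the range of KO (4.87 to 5.30 in KO and 4.09 to 5.11 in WT).

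At the fork, the clamp, its loader and the RPA subunits had 6 of 8 measured members higher (75%, beside 14.6% of all genes). Pcna, the ring that holds polymerases on DNA, had the smallest p of all members. It read 6.79, 6.73, 6.78 and 6.77 in KO 1 to KO 4, against 5.83, 5.27, 5.63 and 5.22 in WT 1 to WT 4, a log2 difference of 1.28 ± 0.15 (2.43-fold, adjusted p = 0.00189). The KO values lay within a narrow range (SD 0.0253, against 0.294 in WT), and Pcna was also the brightest member, at percentile 93.7. Of the loader, Rfc2 read 3.28, 3.55, 3.58 and 3.77 in KO 1 to KO 4, against 2.86, 2.56, 3.06 and 2.67 in WT 1 to WT 4, a difference of 0.76 ± 0.15 (adjusted p = 0.00951). Rfc1, the large loader subunit, read 4.78, 5.01, 4.87 and 4.48 in KO 1 to KO 4, against 4.44, 4.35, 4.13 and 4.07 in WT 1 to WT 4, a difference of 0.54 ± 0.15 (adjusted p = 0.0305) that kept its call in 11 of 19 alternatives. The groups overlapped in the other loader subunits, with differences of 0.18 ± 0.13 for Rfc5 and -0.01 ± 0.13 for Rfc3 (interval -0.30 to 0.29).

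RPA coats the exposed strand as a complex of Rpa1, Rpa2 and Rpa3, and all of these rose in the row kept for each. Rpa2 read 2.97, 3.15, 3.38 and 2.84 in KO 1 to KO 4, against 2.43, 2.33, 2.46 and 2.05 in WT 1 to WT 4, a difference of 0.77 ± 0.15 (adjusted p = 0.00938), and kept its call in each alternative that tested it. Rpa3 read 4.95, 4.18, 4.77 and 4.16 in KO 1 to KO 4, against 3.52, 3.68, 3.17 and 3.31 in WT 1 to WT 4, a difference of 1.09 ± 0.20 (adjusted p = 0.00761). Rpa1 read 3.95, 4.59, 4.43 and 4.40 in KO 1 to KO 4, against 3.89, 3.57, 3.94 and 3.48 in WT 1 to WT 4, a difference of 0.62 ± 0.17 (adjusted p = 0.0304), and KO 1 was barely above the highest control. Rpa1 kept its call in 10 of 19 alternatives. Rpa1 and Rpa3 each have another row on the array that goes the other way. The second row of Rpa1, much dimmer, averaged 1.43 in KO and 1.88 in WT, a difference of -0.45 ± 0.12 (limma adjusted p = 0.042 over all rows). The second row of Rpa3 averaged 3.51 in KO and 3.89 in WT, a difference of -0.39 ± 0.18. The kept row of Rpa3 averaged 4.51 in KO and 3.42 in WT, so in WT the second row was the brighter. The kept row was thus the brightest over all arrays only through its KO values, and the call of Rpa3 rests on that choice. With the mean of a gene's rows, the differences were 0.09 for Rpa1 and 0.35 for Rpa3, and neither passed. The clamp, loader and RPA group then had 4 of 8 members called.

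The polymerases and primase had 4 of 9 measured members higher (44.4%, beside 14.6% of all genes). Prim1, the catalytic subunit of primase, which lays the RNA primers, read 3.34, 3.39, 3.63 and 3.56 in KO 1 to KO 4, against 2.61, 2.15, 2.44 and 1.52 in WT 1 to WT 4, a log2 difference of 1.30 ± 0.22 (2.47-fold, adjusted p = 0.00501). WT 4 was the lowest array, and the lowest KO array stood well above the highest control. Prim2, the other primase subunit, read 4.12, 4.89, 4.11 and 4.67 in KO 1 to KO 4, against 4.20, 3.35, 3.62 and 3.64 in WT 1 to WT 4, and WT 1 lay inside the range of KO. Its difference was 0.74 ± 0.23 (adjusted p = 0.0446), and with the replicate number as a block it was not called (adjusted p = 0.064). Prim2 kept its call in 8 of 19 alternatives, losing it also with sex as a term and without KO 2, KO 3, KO 4, WT 2, WT 3 or WT 4. Whether Prim1 changed more than Prim2 could not be shown (0.56 ± 0.31, exact two-sided permutation p = 0.114, adjusted p = 0.152). This difference was 0.36 without WT 4 and 0.88 with cyclic loess.

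Polymerase alpha, which extends the primers, is represented by Pola1 and Pola2. Pola1 read 3.00, 3.85, 3.37 and 3.31 in KO 1 to KO 4, against 2.84, 2.79, 2.92 and 2.68 in WT 1 to WT 4, a difference of 0.57 ± 0.17 (adjusted p = 0.0408) that kept its call in 7 of 18 alternatives. Pola2 differed by 0.38 ± 0.13 (adjusted p = 0.0656) with groups that did not overlap. In polymerase delta, which copies the lagging strand, Pold3 read 5.29, 5.18, 5.46 and 5.21 in KO 1 to KO 4, against 4.55, 3.33, 4.74 and 4.22 in WT 1 to WT 4. Its difference was 1.07 ± 0.27 (adjusted p = 0.0215), with WT 2 well below the other controls, and the call was lost without KO 3 or KO 4. The catalytic subunit Pold1 differed by only 0.05 ± 0.17 (interval -0.34 to 0.44), and the accessory subunit Pold2 by 0.47 ± 0.20 (adjusted p = 0.111). For polymerase epsilon, which copies the leading strand, Pole and Pole2 had differences of 0.46 ± 0.19 (adjusted p = 0.0995) and 0.60 ± 0.21 (adjusted p = 0.0675); a second, dimmer row of Pole averaged 1.27 in KO and 1.59 in WT, a difference of -0.32 ± 0.17. With the replicate number as a block, Pole passed (adjusted p = 0.0319). Of the 9 members 2 were called without KO 2, 1 without KO 3 and 1 without KO 4.

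Neither enzyme of Okazaki fragment maturation passed. Lig1, the ligase that seals the fragments, read 3.00, 3.85, 3.78 and 3.35 in KO 1 to KO 4, against 2.70, 2.84, 3.74 and 2.73 in WT 1 to WT 4, a difference of 0.49 ± 0.27 (adjusted p = 0.193). The high WT 3 was the exception among the controls, and without it the difference of Lig1 was 0.74 and passed. Fen1, the flap endonuclease that trims the fragments, read 2.65, 2.55, 2.59 and 2.39 in KO 1 to KO 4, against 2.59, 2.87, 2.67 and 2.82 in WT 1 to WT 4, and its difference of -0.19 ± 0.12 had an interval of -0.45 to 0.07.

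Of the 4 nucleotide genes, 2 rose (50%, beside 14.6% of all genes). In all 4 the KO arrays lay above the WT arrays, as in 15.3% of all genes. Their levels ran from 3.32 to 4.33, and 22.9% of all genes rose at 3 to 4 and 36.6% at 4 to 5. Rrm1, the large subunit of ribonucleotide reductase, read 3.88, 5.26, 4.09 and 4.95 in KO 1 to KO 4, against 3.28, 3.55, 3.36 and 2.47 in WT 1 to WT 4, a log2 difference of 1.38 ± 0.33 (2.61-fold, adjusted p = 0.0194). KO 2 and KO 4 stood above KO 1 and KO 3, and the SD within KO (0.67) was the largest of any member. The call was lost without KO 4, among males only, with renewed quantile normalization and with cyclic loess. Rrm2, the small subunit, read 3.34, 4.13, 3.43 and 3.58 in KO 1 to KO 4, against 3.09, 3.31, 2.78 and 2.91 in WT 1 to WT 4, a difference of 0.59 ± 0.19 just outside the threshold (adjusted p = 0.0512). The change of Rrm2 minus that of Rrm1 was -0.79 ± 0.29, not separated from 0 by the exact two-sided permutation test (p = 0.0571, adjusted p = 0.114). Dut, which removes dUTP, read 4.61, 4.90, 4.85 and 4.43 in KO 1 to KO 4, against 3.90, 4.06, 3.89 and 3.99 in WT 1 to WT 4, a difference of 0.74 ± 0.13 (adjusted p = 0.00661). The call of Dut was lost with renewed quantile normalization and with cyclic loess, and under each of these scalings 0 of the 4 nucleotide genes were called. The other row of Dut, among the dimmest, averaged 1.22 in KO and 1.23 in WT. Tyms, the thymidylate synthase, read 4.15, 4.36, 4.20 and 4.09 in KO 1 to KO 4, against 3.20, 4.05, 3.76 and 3.75 in WT 1 to WT 4, a difference of 0.51 ± 0.17 (adjusted p = 0.0612). Rrm2 (adjusted p = 0.0236) and Tyms (adjusted p = 0.0465) passed with the replicate number as a block.

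CAF-1 deposits histones behind the fork. Its subunit Chaf1b read 3.51, 3.68, 3.55 and 3.42 in KO 1 to KO 4, against 3.18, 2.92, 2.91 and 3.27 in WT 1 to WT 4, a difference of 0.47 ± 0.13 (adjusted p = 0.0289) that was not called with the block (adjusted p = 0.056). Chaf1b kept its call in 7 of 18 alternatives, losing it without each of the KO arrays and without WT 2 or WT 3. Chaf1a read 2.58, 3.09, 3.50 and 3.04 in KO 1 to KO 4, against 2.76, 2.40, 2.63 and 2.14 in WT 1 to WT 4, a difference of 0.57 ± 0.21 (adjusted p = 0.0729), with WT 1 and WT 3 inside the range of KO. The changes of these subunits differed by -0.10 ± 0.26 (exact two-sided permutation p = 0.714), a value that changed sign with the array left out (0.08 without WT 4, 0.04 without KO 3).

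**Figure D4:**
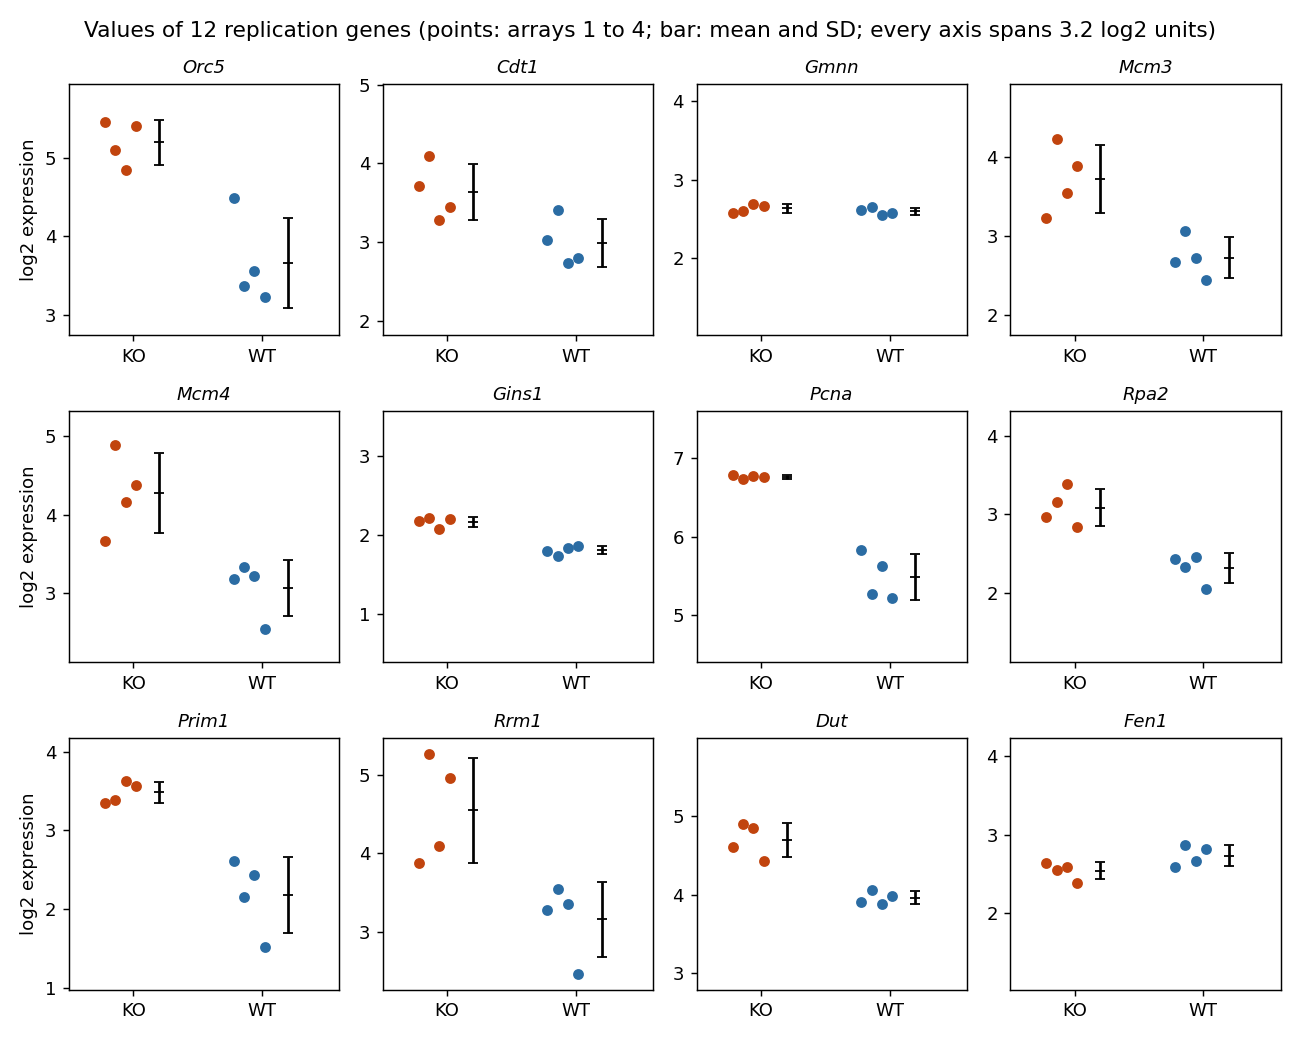
Log2 expression of 12 members (y axes, all of the same log2 span) in the 4 KO arrays (left) and the 4 WT arrays (right), points in order of replicate number, with mean and SD beside them. Pcna, Prim1 and Orc5 separate by more than the spread within a group, while Gmnn and Fen1 overlap.

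The members did not all follow the same arrays. KO 2 was the highest KO array in 27 of 46 members and KO 4 in 4. Averaged over the helicase genes, the deviation from the gene mean was 0.06 in KO 1, 0.87 in KO 2, 0.37 in KO 3 and 0.51 in KO 4, against -0.47, -0.24, -0.30 and -0.81 in WT 1 to WT 4. For origin recognition and loading it was 0.42, 0.46, 0.18 and 0.40 in KO 1 to KO 4, against -0.02, -0.61, -0.32 and -0.51 in WT 1 to WT 4. So WT 1 was the highest control for the licensing genes and WT 2 the highest for the helicase genes. Macrophage markers had deviations of -0.30, 1.35, 0.82 and 1.29 in KO 1 to KO 4, against -1.71, 0.08, -0.99 and -0.55 in WT 1 to WT 4. The order KO 2, KO 4, KO 3 and KO 1 held for the helicase genes and macrophage markers, and also for the mean of all members, the nucleotide genes, the polymerases and stellate markers. WT 2 was the highest control for both helicase genes and macrophage markers, and the order of the other WT arrays differed. KO 1 was below WT 2 for macrophage markers but above every WT array for the helicase genes. The part of the markers in the result was not tested.

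**Figure D5:**
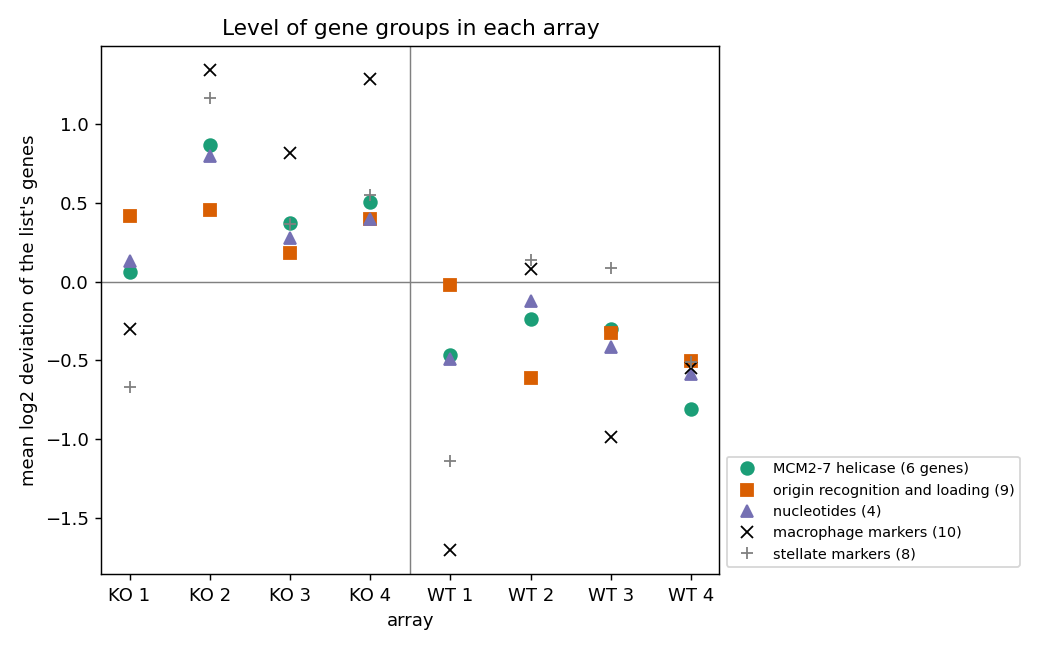
Mean log2 deviation from the gene mean (y axis) of the helicase, origin and nucleotide genes and of macrophage and stellate markers in the 4 KO arrays (left) and the 4 WT arrays (right). The 3 replication groups are above 0 in every KO array and below 0 in every WT array, while both marker lists overlap between KO and WT.

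A second list of 58 replication genes that are not members gave 53 measured genes, of which 26 (49.1%) rose, beside 14.6% of all genes, and 0 fell. Their median log2 difference was 0.52. The levels of these genes ran from 1.70 to 6.71, with a median of 3.57, against 3.32 in the members. Of all genes at a level of 3 to 4, 22.9% rose, with a median difference of 0.26. At 4 to 5 the share was 36.6% and at 5 or more 35.9%, and no level-weighted share was computed for this list. At an unadjusted p under 0.05, 34 were higher and 1 lower, and the count of 26 was 15 without KO 3, 11 without KO 4 and 17 without WT 4. The 6 of smallest p began with Ddb1, a subunit of the ubiquitin ligase that degrades Cdt1 (1.14 ± 0.13, adjusted p = 0.00135). They went on with Rif1, which sets replication timing (1.31 ± 0.18, adjusted p = 0.0027), and the histone chaperone Nasp (1.05 ± 0.15, adjusted p = 0.00283). The others were the FACT subunit Supt16 (1.03 ± 0.15, adjusted p = 0.00331), the helicase Mcm8 (0.68 ± 0.11, adjusted p = 0.00495) and the Pcna unloader Atad5 (0.70 ± 0.13, adjusted p = 0.00847). The lowest values belonged to Shmt1, an enzyme of one-carbon supply (-0.41 ± 0.16, adjusted p = 0.0966), and Dctpp1, which breaks down dCTP (-0.28 ± 0.19, adjusted p = 0.293), neither of which passed.

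A list of proliferation markers and Cdkn1a had 10 measured genes, of which 1 rose (10%, beside 14.6% of all genes). It was Cdkn1a, which is not a proliferation marker but the inhibitor p21 (3.39 ± 0.26, limma adjusted p = 0.000437). This protein blocks entry into S phase and binds Pcna. The other 9 genes, the proliferation markers, did not pass. All but Plk1 (-0.04) had positive differences, from 0.15 for Aurkb to 1.004 for Mki67. The median difference of the list, Cdkn1a included, was 0.39 at a median level of 3.28, against 0.26 for all genes at 3 to 4. Mki67, a marker of cycling cells, read 5.36, 5.97, 5.75 and 5.39 in KO 1 to KO 4, against 5.31, 3.84, 5.49 and 3.81 in WT 1 to WT 4, and differed by 1.004 ± 0.39 (adjusted p = 0.0872). No member passed a test of whether the genotype difference was unlike in the female pair and the males (0 of 46, limma, 2 at an unadjusted p under 0.05), with 1 female per genotype.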

How the data were processed

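Total RNA of 8 mouse pancreas samples was measured on whole-transcript arrays, with cDNA labelled from 100 ng of RNA per the labels' protocols. The authors deposited 1 table of 41345 rows, whose values range from 0.044 to 12.47 and were read as log2 expression; oligo, RMA and limma are named per the submitters' processing notes, without versions or log base. All columns were matched to samples by accession. Rows were named through the platform annotation: 23521 had 1 symbol, 1814 several and 16010 none, and the last kinds were not tested. No filter on level was used.

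Genotype was tested over all 22180 genes with limma 3.58.1 (lmFit, eBayes) in R 4.3.3 on 8 arrays, with no factor but genotype, Benjamini-Hochberg adjusted p and a threshold of 0.05; intervals are 95%. The steps were tested on simulated data. Members, lists and tests were chosen with earlier results of these data known. Values in every array are given for each member that passed, for the member of smallest p in a step where none passed, and for some others, picked after their values were seen; for the second list, the 6 of smallest p. Scan batches and array background were not in the table, and the number of arrays limits the precision. Replicate numbers served as a block only as an alternative, and the main fit and main exact permutation tests did not use them. After subtracting group means, the KO and WT arrays of a number correlated at 0.263, 0.165, 0.11 and 0.138 across genes. These values were not compared with arrays of unlike numbers, and number 4 is also the female pair, so they do not show a pairing. No label says what a number shares. Alternatives were sex or replicate as a term, males only, leaving out each array, 3 other scalings, other variance models, a level filter and other treatments of a gene's rows.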

Additional observations from a re-analysis of the deposited data

Results flagged for a closer look

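Among 92 groups of 4 arrays (46 members in each genotype), 2 held an array far from the other 3, where chance alone gives about 1 group in 20. Orc1 read 1.80 in WT 2, against 1.46 to 1.48 in the other WT arrays, at a level among the dimmest of the members. Lig1 read 3.74 in WT 3, against 2.70 to 2.84 in the other WT arrays.

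Of 4 rows that the annotation shares between a member and another gene, and that the comparisons do not use, 2 differed between genotypes in a limma fit over all rows. The row shared by Rfc4 and Eif4a2, a clamp loader subunit and a translation factor, averaged 4.05 in KO and 3.19 in WT, a log2 difference of 0.87 ± 0.17 (adjusted p = 0.0173), and the source of its signal cannot be told apart. The row shared by Mir25 and Mcm7 averaged 2.46 in KO and 3.22 in WT, a difference of -0.76 ± 0.15 (adjusted p = 0.0183), opposite to the rise of Mcm7 in its own row.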

How the results depend on the processing

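Over 19 alternatives, 843 values of single members were recomputed; 708 stayed on their side of the threshold, 97 lost a call, 38 gained one and 0 reversed. Of the 23 calls, 3 (Pcna, Rpa2 and Prim1) held in every alternative that tested them, and Orc5, Mcm3, Mcm4 and Rfc2 in every one but males only. The number of members called higher was 5 among males only, 13 to 26 with 1 array left out (lowest without KO 4), 10 with renewed quantile normalization, 14 with cyclic loess, 32 with median centring, 29 with array weights (16.9% of all genes) and 13 of 15 tested with a mean level of at least 4 (40.6% of all genes). The median change of the members was 0.44 with renewed quantile normalization, 0.72 after median centring and 0.74 with the level filter, which keeps the brighter members. Median centring moved the median of all genes to 0.08, from -0.06 as deposited, and cyclic loess to -0.01. For the second replication list the count was 5 among males only, 11 to 28 with 1 array left out, 9 with renewed quantile normalization, 16 with cyclic loess, 34 with median centring and 14 of 20 with the level filter, with the same shares of all genes as above. The change of Rrm2 minus that of Rrm1 was -1.05 with the mean of a gene's rows and -0.93 without WT 3, both past an unadjusted exact permutation p of 0.05, ran from -0.93 to -0.59 with 1 array left out and was -0.44 among males only. That of Prim1 minus Prim2 ran from 0.36 to 0.74 with 1 array left out. With the replicate number as a block, 25 members were called, and the pair differences kept their values (0.61, -0.79, 0.56 and -0.10) in an exact paired permutation test that cannot go below p = 0.125. Block results that changed a call stand beside the genes, and it changed no other call of a member. The number of members called lower stayed 0 in each alternative, as did the genotype by sex count where it could be fitted (not with sex as a term, males only or a female array left out, and not run with all rows tested). The cause of these shifts was not tested.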

Other observations

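Some markers of cycling cells varied widely among the controls. Mki67 read 5.36, 5.97, 5.75 and 5.39 in KO 1 to KO 4, against 5.31, 3.84, 5.49 and 3.81 in WT 1 to WT 4. Ccna2, the S phase and mitotic cyclin, read 3.65, 4.30, 4.14 and 4.16 in KO 1 to KO 4, against 3.89, 3.30, 4.08 and 2.68 in WT 1 to WT 4, and Ccnb2, a mitotic cyclin, read 3.28, 4.23, 3.96 and 4.08 in KO 1 to KO 4, against 4.13, 3.10, 3.50 and 2.65 in WT 1 to WT 4. In all of these genes WT 2 and WT 4 were the lowest of the 8 arrays, and in Ccna2 and Ccnb2 the other controls lay within the range of KO. The helicase genes had WT 2 as the highest control on average. Other proliferation markers did not show this: the SD among controls was 0.226 for Plk1 and 0.17 for Bub1, against 0.912 for Mki67, and in Aurka WT 4 (2.84) was the highest control and WT 1 (1.53) the lowest. These genes were picked after their values were seen.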
